A study of Mus musculus with 6 samples.

Results

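The nuclear genes for mitochondrial ribosomal proteins were followed in mouse pro-B cells with and without deletion of Skiv2l, the helicase of the cytoplasmic Ski complex that feeds mRNA to the exosome for decay. Members were all genes whose symbol is Mrpl or Mrps followed by a number, with or without a letter a, b or c, and 78 of the 54752 genes in the files fitted this pattern. Pro-B cells had been sorted by flow cytometry from the bone marrow of adult C57BL/6 mice. The Skiv2l-deleted group was Skiv2lfl/fl-Cd79a-Cre (n = 3 mice), in which Cre is driven from the B-lineage gene Cd79a, and the control group was Skiv2lfl/fl (n = 3 mice), for which no Cre is named. Both groups therefore carry the floxed Skiv2l alleles, and effects of Skiv2l deletion and of the Cre allele cannot be told apart. Each mouse gave 1 strand-specific mRNA library, and levels are given in FPKM, fragments scaled to transcript length and library size, which allows levels of different genes to be compared per length.

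The mitochondrial ribosome translates the mRNAs of the mitochondrial genome, which encode core subunits of the respiratory chain. Its rRNAs come from mitochondrial DNA, while all of its proteins are encoded in the nucleus, made in the cytosol and imported. Some of these proteins have relatives in the bacterial ribosome and others are found only in mitochondria.

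The 6 libraries held between 1.74 and 2.40 Gb of aligned sequence, as recovered from the ratio of FPKM to coverage. Skiv2l stood at 9.53, 16.1 and 10.9 FPKM in Skiv2l-deleted cells and at 25.4, 20.2 and 46.3 FPKM in control cells, with no overlap (log2 fold change -1.21 ± 0.32 SE, limma adjusted p = 0.063, 0.0172 to 0.212 over the 17 alternative settings). Cd79a, the gene that carries the Cre allele, averaged 392 ± 42.5 FPKM in Skiv2l-deleted cells and 702 ± 53.8 FPKM in control cells (SD, n = 3 each; limma adjusted p = 0.0123). All 14 pro-B markers on the list were above 0 in every library, and 7 of them rose and 1, Cd79a, fell (limma, adjusted p below 0.05). Their summed level was 4887, 4500 and 5606 FPKM in Skiv2l-deleted cells and 3677, 3084 and 4165 FPKM in control cells, with no overlap, and Dntt, the terminal transferase of V(D)J joining, averaged 723 ± 145 FPKM in Skiv2l-deleted cells and 259 ± 73.0 FPKM in control cells (SD, n = 3 each). Myeloid markers varied between libraries of both genotypes. The granulocyte enzyme gene Mpo was at 6.53, 641 and 4.30 FPKM in Skiv2l-deleted libraries 1 to 3 and at 8.99, 6.79 and 343 FPKM in control libraries 1 to 3, and the summed monocyte markers were at 57.3, 1303 and 79.9 FPKM in Skiv2l-deleted cells and at 139, 57.4 and 648 FPKM in control cells, so Skiv2l-deleted 2 and control 3 were highest in both. Other granulocyte genes were also high in Skiv2l-deleted 1 and control 2, as for S100a9, at 165, 243 and 1.98 FPKM in Skiv2l-deleted cells and 1.499, 217 and 177 FPKM in control cells. The whole granulocyte list of 8 summed to 367, 1890 and 13.1 FPKM in Skiv2l-deleted cells and 21.8, 467 and 1085 FPKM in control cells. Summed plasma cell markers ranged from 127 to 152 FPKM in Skiv2l-deleted cells and from 422 to 619 FPKM in control cells, and later B cell markers from 184 to 268 FPKM in Skiv2l-deleted cells and from 339 to 362 FPKM in control cells. Summed erythroid markers were at 8.37, 204 and 3.82 FPKM in Skiv2l-deleted cells and at 7.39, 8.07 and 5.33 FPKM in control cells. Summed T and NK cell markers ranged from 13.8 to 43.6 FPKM in Skiv2l-deleted cells and from 5.25 to 18.3 FPKM in control cells. Most of these sums came from Nkg7 and Klrb1c, the 2 T and NK genes tested. Of these 1 was called higher (limma, adjusted p below 0.05), where 4.97% of all tested genes were. Cd3e, Cd3g, Cd3d, Cd4, Cd8a and Ncr1 were at 0.53 FPKM or less in every library. The part of all these markers in the values of the members was not tested. The 37 genes of the mitochondrial genome are listed at 0 in every library, so the RNAs that the mitochondrial ribosome contains and translates could not be read.

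As a family, the 78 genes gave few calls between the groups. None was called higher in Skiv2l-deleted cells and 1, Mrpl49, was called lower (limma, adjusted p below 0.05 over all 13539 genes tested). That is 1.28% of the members, against 8.84% of all tested genes called in either direction, 4.97% higher and 3.87% lower. At an unadjusted p below 0.05 there were 5 higher and 2 lower members, 8.97% of the family, against 25.6% of all tested genes. All 78 genes passed the filter on low values, and each was above it in every library. In bulk samples, fewer cells of a type and less RNA per cell cannot be told apart.

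The log2 fold changes, Skiv2l-deleted over control on the log2(FPKM + 1) scale, ran from -0.45 for Mrpl49 to 0.66 for Mrpl17. They were above 0 for 48 members and below 0 for 30, with a median of 0.03, beside 0.06 over all tested genes. With the medians of all libraries made equal, the members' median was -0.03. The difference was under 0.25 in size for 63 members (80.8%), compared with 55.4% of all tested genes, and 2 members reached 0.5. The median standard error was 0.15 for the members and 0.16 for all tested genes. The 95% interval of the difference lay within 2-fold in either direction for 76 members, the exceptions being Mrpl17 and Mrpl53, and within 1.5-fold for 55. For 15 members the interval still reached a 1.5-fold higher level, and for 12 a 1.5-fold lower level.

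**Figure D1:**
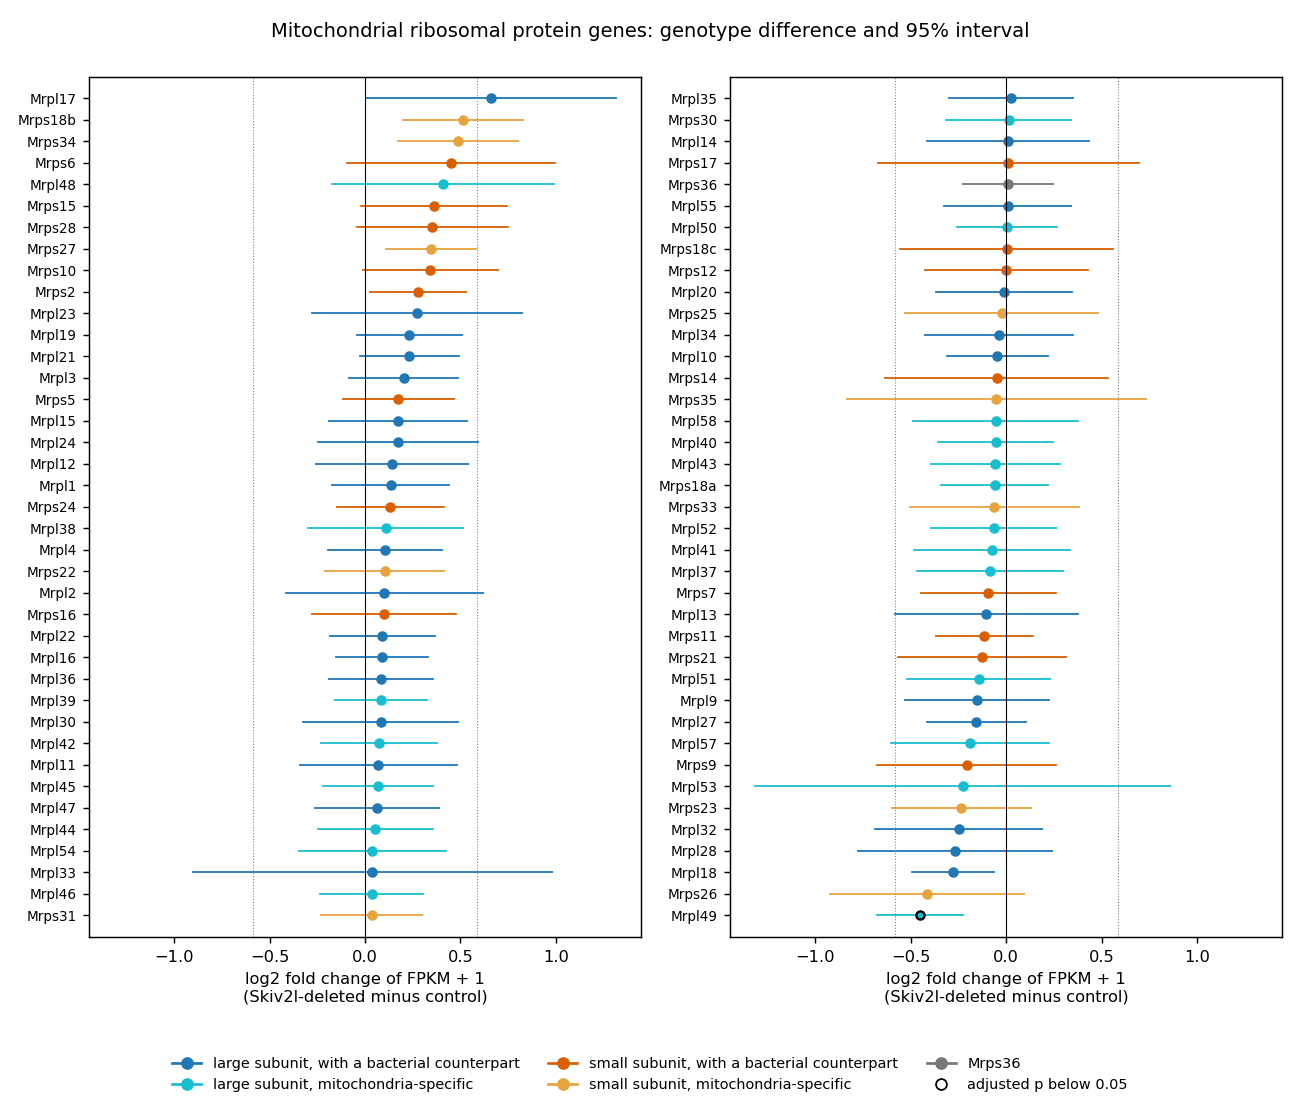
Log2 fold change (Skiv2l-deleted over control) of each of the 78 members, ordered by value and coloured by class. The left panel continues in the right one. Points are the limma estimates and bars the 95% intervals; most lie near 0, and Mrpl49 is the single member called at adjusted p below 0.05.

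Mrpl49, a mitochondria-specific protein of the large subunit, was at 41.6, 45.3 and 41.3 FPKM in Skiv2l-deleted cells and at 57.7, 61.4 and 57.3 FPKM in control cells. All 3 Skiv2l-deleted values lay below all 3 control values, and it fell by 0.45 on the log2 scale (SE 0.10, limma adjusted p = 0.0337). The call held in 11 of 17 alternative settings. It was lost without Skiv2l-deleted 1 (adjusted p = 0.159), 2 (0.0677) or 3 (0.169), and without control 1 (0.0974) or control 2 (0.0937). Mrpl49 lies at chr19:6053622-6057785 on the minus strand of GRCm38, where its 3' end overlaps that of Syvn1, an ER ubiquitin ligase gene on the plus strand, by 91 bases. Syvn1 fell as well (log2 fold change -0.48, limma adjusted p = 0.0451). The divergent neighbour of Mrpl49, Fau, whose start site is 59 bases away, had a log2 fold change of -0.05 (limma adjusted p = 0.899). The kit was strand-specific, but no label says whether the quantification kept the strands apart.

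Mrpl18, a large-subunit protein with a bacterial relative, was the other member with every Skiv2l-deleted value below every control value. It had 60.8, 65.2 and 61.0 FPKM in Skiv2l-deleted cells and 75.1, 77.8 and 74.2 FPKM in control cells (log2 fold change -0.28 ± 0.09 SE, limma adjusted p = 0.112). Mrps26, a small-subunit protein, had the lowest log2 fold change after Mrpl49, with 24.3, 31.2 and 25.9 FPKM in Skiv2l-deleted cells against 30.6, 30.7 and 50.9 FPKM in control cells (-0.41, limma adjusted p = 0.289). Without control 3 its log2 fold change was -0.18. Control 3 was also the highest library for Mrpl28 of the large subunit. Mrpl28 was at 56.9, 68.1 and 57.7 FPKM in Skiv2l-deleted cells against 59.5, 63.6 and 103.6 FPKM in control cells. Without control 3 the log2 fold change of Mrpl28 was -0.02, against -0.27 with it. Mrpl32, the last of the 5 lowest, overlapped between the groups (-0.25, limma adjusted p = 0.464).

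At the other end, Mrpl17, a large-subunit protein near the peptide exit tunnel, had 6.96, 14.5 and 7.03 FPKM in Skiv2l-deleted cells and 4.42, 5.64 and 5.97 FPKM in control cells (log2 fold change 0.66 ± 0.28 SE, limma adjusted p = 0.192). Skiv2l-deleted 2 was far above the rest, and the lowest estimate over the alternatives was 0.34. Mrps18b, a small-subunit protein, had 25.4, 25.3 and 23.6 FPKM in Skiv2l-deleted cells and 15.6, 15.6 and 20.3 FPKM in control cells. The groups did not overlap (0.51 ± 0.13 SE, limma adjusted p = 0.0604), and it was called in 3 of 17 alternatives, with adjusted p from 0.015 without control 3 to 0.213 without Skiv2l-deleted 1. Its paralogs overlapped between the groups. Mrps18a, a large-subunit protein despite its name, had 52.9, 49.2 and 50.7 FPKM in Skiv2l-deleted cells against 52.0, 47.4 and 60.8 FPKM in control cells. Mrps18c had 61.5, 83.6 and 52.1 FPKM in Skiv2l-deleted cells against 51.0, 61.2 and 85.5 FPKM in control cells, a log2 fold change of 0.00.

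Mrps34, a mitochondria-specific small-subunit protein, had 15.6, 14.8 and 15.96 FPKM in Skiv2l-deleted cells and 9.08, 12.1 and 11.2 FPKM in control cells, with no overlap (log2 fold change 0.49 ± 0.13 SE, limma adjusted p = 0.068). It was called in 0 of the 17 alternatives. The gene, at chr17:24895116-24897502 on the plus strand, lies wholly within Mapk8ip3 on the other strand and overlaps Nme3 on its own strand by 1003 bases, so reads may not be assignable to it alone. Mrps6 and Mrpl48, the other 2 of the 5 highest, overlapped between the groups. Mrps6 had 20.1, 19.5 and 15.6 FPKM in Skiv2l-deleted cells and 9.16, 13.9 and 17.6 FPKM in control cells, and Mrpl48 had 27.0, 25.8 and 25.6 FPKM in Skiv2l-deleted cells and 27.9, 20.2 and 13.002 FPKM in control cells. Mrps6 overlaps Gm49711 by 53912 bases and Slc5a3 by 29152 bases on its own strand. Mrpl17 overlaps the pseudogene Gm15645 on the other strand by 7894 bases. Reads may therefore not be assignable to Mrps6 or Mrpl17 alone either. Counting over the family, 7 members had every Skiv2l-deleted value above every control value, 8.97% of the members, where 19.9% of all tested genes did. These were Mrpl17, Mrpl19, Mrpl21, Mrps2, Mrps18b, Mrps27 and Mrps34. Mrpl18 and Mrpl49, with all values lower, make 2.56% of the members, compared with 12.3% of all tested genes, and 32.2% of all tested genes did not overlap in either direction. Mrps27, a mitochondria-specific small-subunit protein with pentatricopeptide repeats, was at 20.8, 19.96 and 19.9 FPKM in Skiv2l-deleted cells and 15.5, 16.3 and 15.3 FPKM in control cells (log2 fold change 0.35, limma adjusted p = 0.077). Mrps2, a small-subunit protein with a bacterial relative, had 21.9, 20.99 and 18.8 FPKM in Skiv2l-deleted cells and 16.9, 16.8 and 16.7 FPKM in control cells (0.28, limma adjusted p = 0.159). The large-subunit proteins Mrpl21 and Mrpl19 each had a log2 fold change of 0.23, with limma adjusted p = 0.246 for Mrpl21 and 0.267 for Mrpl19.

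**Figure D2:**
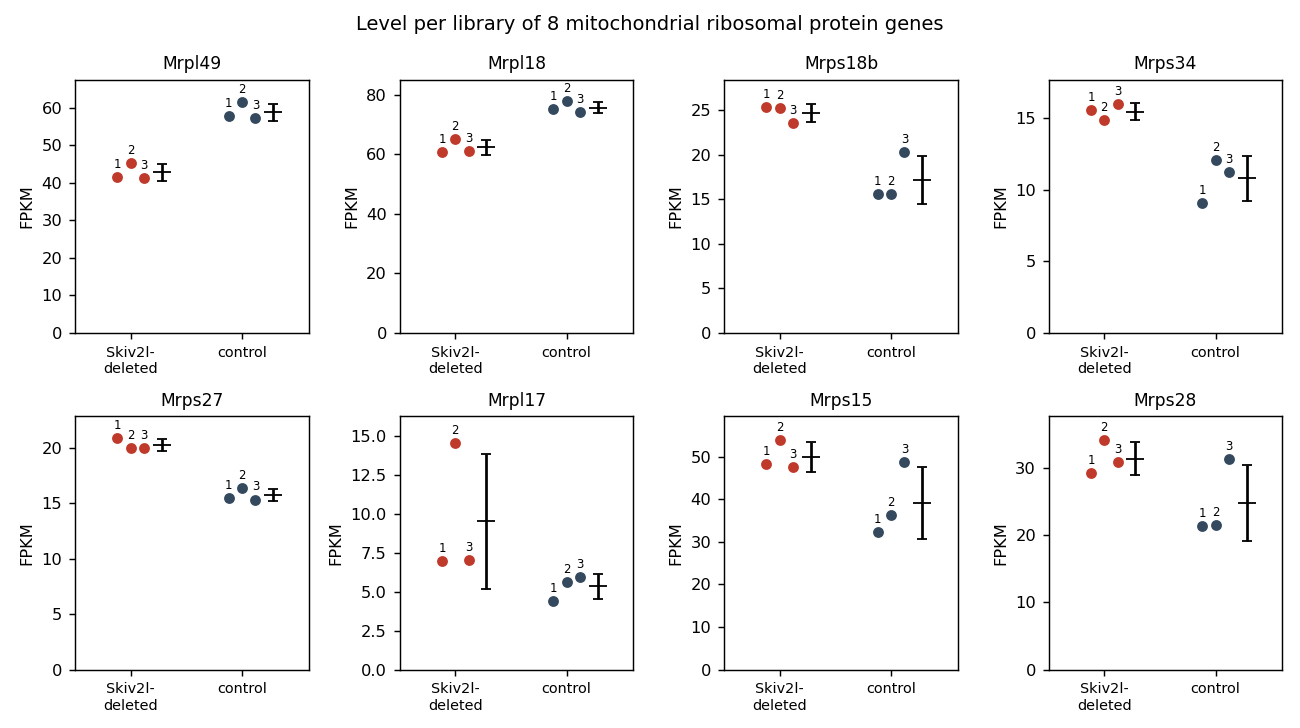
FPKM of 8 members in each library, Skiv2l-deleted left of control, with the library number at each point and the mean and SD beside the points. Mrpl49 and Mrpl18 are lower and Mrps18b, Mrps34, Mrps27 and Mrpl17 higher in every Skiv2l-deleted library than in every control library, while control 3 overlaps the Skiv2l-deleted values for Mrps15 and Mrps28.

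By structural class, the large-subunit proteins with bacterial relatives had 0 of 30 members called and a median log2 fold change of 0.08. The 21 mitochondria-specific large-subunit proteins held the 1 lower call and had a median of -0.05. Among small-subunit proteins, 0 of 16 with bacterial relatives and 0 of 10 mitochondria-specific ones were called, with medians of 0.06 and 0.01. At an unadjusted limma p below 0.05 there were 2, 1, 1 and 3 members in these 4 classes, in the same order. Over all tested genes 8.84% were called, 25.6% were below that unadjusted p, and the median log2 fold change was 0.06. Without control 3 the 4 medians were 0.15, 0.08, 0.18 and 0.17, beside 0.06 over all tested genes. Mrps36 bears the family's name but is now placed in the 2-oxoglutarate dehydrogenase complex, and it averaged 25.1 ± 0.315 FPKM in Skiv2l-deleted cells and 24.9 ± 1.47 FPKM in control cells (SD, n = 3 each). The summed FPKM of large over small subunit genes was 2.42, 2.37 and 2.49 in Skiv2l-deleted cells and 2.51, 2.52 and 2.47 in control cells, so the groups overlapped.

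Levels spanned a wide range, from a mean of 5.57 to 91.3 FPKM over the 6 libraries, with a median of 30.9 FPKM against 12.6 FPKM for all tested genes. At the top stood Mrpl42, at 93.3 ± 3.38 FPKM in Skiv2l-deleted cells and 89.3 ± 12.9 FPKM in control cells (SD, n = 3 each). Mrps21 followed, at 78.7 ± 14.5 FPKM in Skiv2l-deleted cells and 86.1 ± 16.7 FPKM in control cells (SD, n = 3 each), then Mrpl24, Mrpl30 and Mrpl52. Mrpl53, a large-subunit protein, was lowest, at 5.45, 4.36 and 3.75 FPKM in Skiv2l-deleted cells and 3.26, 3.33 and 13.3 FPKM in control cells, so that control 3 alone set the sign of its difference. Mrpl47, Mrpl17, Mrpl1 and Mrps25 were the next lowest. Around the peptide exit tunnel, Mrpl24 had 79.4, 96.4 and 80.4 FPKM in Skiv2l-deleted cells and 72.3, 61.6 and 96.3 FPKM in control cells, and Mrpl22 had 33.4, 33.5 and 29.9 FPKM in Skiv2l-deleted cells and 28.5, 28.5 and 33.9 FPKM in control cells. Mrpl45, which tethers the ribosome to the inner membrane, was at 19.3, 18.9 and 16.99 FPKM in Skiv2l-deleted cells and 15.5, 18.2 and 18.9 FPKM in control cells. Mrps12 of the decoding centre was at 26.7, 36.1 and 27.0 FPKM in Skiv2l-deleted cells and 26.0, 27.1 and 36.9 FPKM in control cells, and each of these genes overlapped between the groups. Within the stalk region that receives translation factors, Mrpl12 had 62.8, 62.9 and 65.4 FPKM in Skiv2l-deleted cells and 44.9, 60.1 and 71.1 FPKM in control cells, while Mrpl11 had 11.3, 11.6 and 11.5 FPKM in Skiv2l-deleted cells and 9.54, 9.36 and 14.4 FPKM in control cells.

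In FPKM, control 3 was the highest of the 3 control libraries for 58 of 78 members (74.4%, against 43.8% of all tested genes), and Skiv2l-deleted 2 was the highest of its group for 54 (69.2%, against 42.1%), with 44 members showing both. In TPM these counts were 47 for control 3 (60.3%) and 36 for Skiv2l-deleted 2 (46.2%), with no share of all tested genes worked out on that scale. Total FPKM over all genes was itself highest in these 2 libraries. It was 502068, 544100 and 506046 in Skiv2l-deleted libraries 1 to 3 and 498125, 500594 and 551712 in control libraries 1 to 3. The median deviation of the members from their own means was 0.01, 0.10 and -0.04 log2 units in Skiv2l-deleted libraries 1 to 3 and -0.15, -0.10 and 0.18 in control libraries 1 to 3. In TPM the medians were 0.05, 0.03 and -0.01 in Skiv2l-deleted libraries and -0.10, -0.05 and 0.09 in control libraries, so Skiv2l-deleted 2 was not above Skiv2l-deleted 1 on that scale. Control 3 and Skiv2l-deleted 2 also had the highest monocyte and granulocyte marker sums of their groups, but S100a9 and other granulocyte genes were high in Skiv2l-deleted 1 and control 2 as well. The part of these markers in the members' levels was not tested. Mrps14, a small-subunit protein, was at 24.4, 15.5 and 23.6 FPKM in Skiv2l-deleted cells and at 24.8, 25.9 and 15.5 FPKM in control cells, lowest in these 2 libraries. Mrpl33 of the large subunit was at 29.8, 54.7 and 24.0 FPKM in Skiv2l-deleted cells and at 31.4, 21.2 and 54.1 FPKM in control cells, highest in these 2 libraries.

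Leaving out control 3 gave 5 members called higher, Mrpl2, Mrpl23, Mrps15, Mrps18b and Mrps28, and 1 lower, Mrpl49 (limma, adjusted p below 0.05). Over all genes 7.65% were then called higher and 5.47% lower, beside 5 and 1 of the 78 members. The members' share called higher was thus near the background. The members' median was then 0.14, with 66 of 78 above 0. Mrps15 of the small subunit, for example, had 48.3, 53.8 and 47.5 FPKM in Skiv2l-deleted cells and 32.3, 36.3 and 48.7 FPKM in control cells. Mrpl23 of the large subunit had 49.0, 53.2 and 43.0 FPKM in Skiv2l-deleted cells and 34.6, 31.2 and 58.3 FPKM in control cells. Without control 3 and Skiv2l-deleted 2 together, 3 members were called higher, against 7.3% of all tested genes, and 1 lower, against 5.73%, and the median was 0.07. Mrpl2, Mrpl23, Mrps15 and Mrps28 were named after their values had been seen, as were Mrps14 and Mrpl33. With TPM in place of FPKM, 1 member was called higher (Mrps18b, where 3.89% of all tested genes were) and 1 lower (Mrpl49, where 3.12% were).

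**Figure D3:**
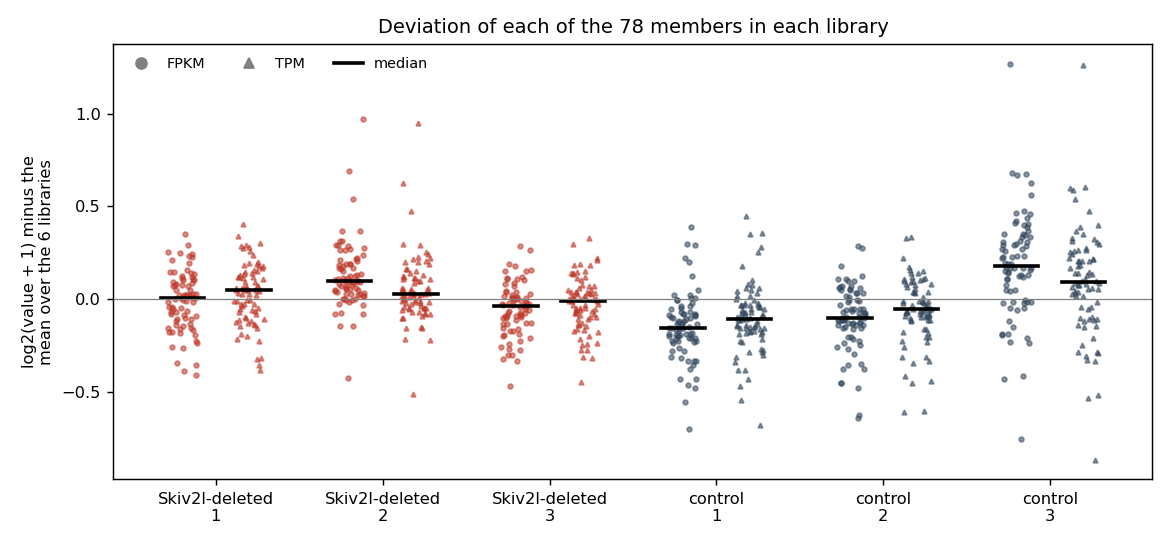
Deviation of each of the 78 members from its own mean over the 6 libraries, in log2 units, per library, Skiv2l-deleted left of control. Circles are FPKM, triangles TPM and bars medians. Control 3 is the highest, at 0.18, and control 1 the lowest, at -0.15, in FPKM.

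Summed over the family, the level was 2584, 2908 and 2511 FPKM in Skiv2l-deleted cells and 2405, 2489 and 3100 FPKM in control cells. The means were 2668 ± 212 FPKM in Skiv2l-deleted cells and 2664 ± 379 FPKM in control cells (SD, n = 3 each), a difference of 0.125% that is far inside the spread. That near-equality rested on control 3. Without it the control mean was 2447 FPKM, and controls 1 and 2 both lay below every Skiv2l-deleted sum. In TPM, however, the sum of control 2, 4971, lay above that of Skiv2l-deleted 3, 4962. The family took 0.515, 0.535 and 0.496% of all FPKM in Skiv2l-deleted cells and 0.483, 0.497 and 0.562% in control cells. Set against the nuclear genes for the respiratory chain, the family's sum was 29.0, 27.8 and 27.4% of theirs in Skiv2l-deleted cells and 28.7, 27.9 and 26.8% in control cells, so the groups overlapped. Set against the genes for the cytosolic ribosome it was 3.63, 3.39 and 3.57% in Skiv2l-deleted cells and 4.21, 4.08 and 4.11% in control cells, with no overlap. That lower share came with a summed cytosolic ribosomal protein level of 75743 ± 8630 FPKM in Skiv2l-deleted cells and 64522 ± 9565 FPKM in control cells (SD, n = 3 each). Many cytosolic ribosomal protein genes have near-identical pseudogene copies, so their values are uncertain.

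**Figure D4:**
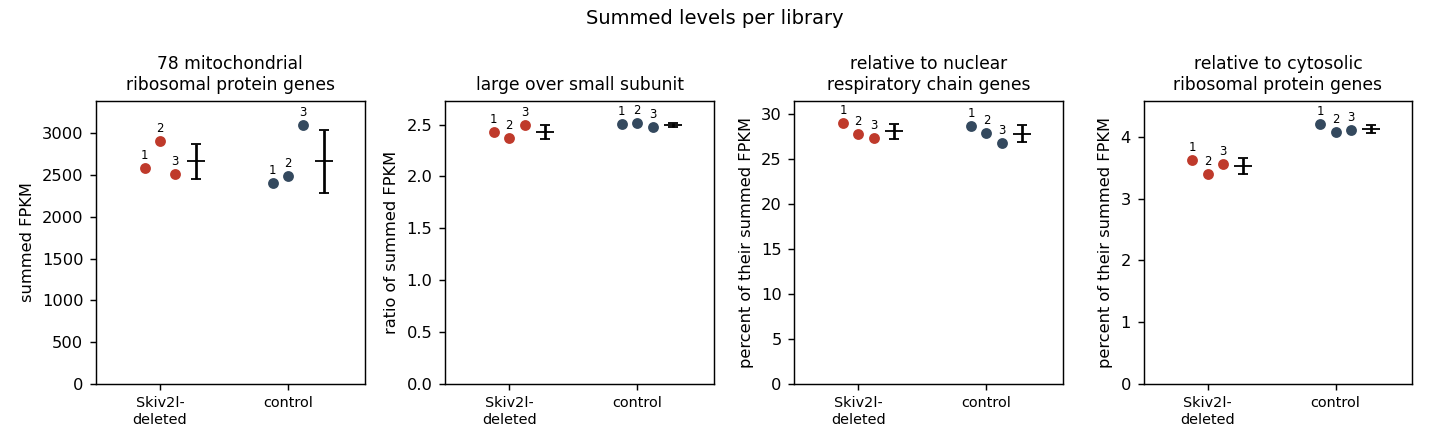
Summed FPKM of the members per library, the ratio of large to small subunit sums, and the members' sum as a percentage of the respiratory chain and cytosolic ribosomal protein sums, Skiv2l-deleted left of control, with means and SD (n = 3). The groups overlap except in the percentage of the cytosolic ribosomal protein sum.

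The rest of the mitochondrial translation system gave few calls. Over all tested genes 4.97% were called higher and 3.87% lower, shares that also give few calls in lists this small. The 5 proteins of the mitochondrial ribosome with other names (Dap3, Chchd1, Aurkaip1, Ptcd3 and Gadd45gip1) had 0 called, and Dap3 averaged 38.8 ± 0.662 FPKM in Skiv2l-deleted cells and 46.3 ± 16.2 FPKM in control cells (SD, n = 3 each). None of the 27 assembly factors, 16 translation factors, 28 genes for mitochondrial DNA and RNA maintenance or 27 import genes was called (limma, adjusted p below 0.05), and at an unadjusted p below 0.05 there were 1, 2, 5 and 4 genes in these lists and 0 among the 5 proteins. Of all tested genes 25.6% were below that unadjusted p. Of 20 mitochondrial aminoacyl-tRNA synthetases 1 rose, Tars2, which charges threonine tRNA, with 50.5 ± 5.61 FPKM in Skiv2l-deleted cells and 31.8 ± 3.56 FPKM in control cells (SD, n = 3 each; log2 fold change 0.65, limma adjusted p = 0.0302). Of 14 chaperones and proteases 1 rose, Hspa9, the matrix Hsp70 of protein import, with 136 ± 14.5 FPKM in Skiv2l-deleted cells and 83.9 ± 12.2 FPKM in control cells (SD, n = 3 each; 0.70, limma adjusted p = 0.0293). Both calls were lost on leaving out single libraries, with adjusted p up to 0.134 for Tars2 and 0.127 for Hspa9. Of the 14 tested genes on the list of regulators of biogenesis 1 rose, Nfe2l1 (0.50, limma adjusted p = 0.0435), a call that held in 4 of 17 alternatives. Nfe2l1 is a different gene from Nrf1, which is on the same list and was not called. Outside the mitochondrial lists, 12 of 18 integrated stress response genes rose and 11 of 20 G2/M genes fell (limma, adjusted p below 0.05), beside a family of members that gave 1 call.

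Of the 78 tested respiratory chain genes 1 rose, Cox6a2, the muscle-type isoform of a cytochrome c oxidase subunit, with 23.5 ± 9.70 FPKM in Skiv2l-deleted cells and 3.34 ± 0.466 FPKM in control cells (SD, n = 3 each; log2 fold change 2.41, limma adjusted p = 0.00935, called in 17 of 17 alternatives). The median of that list was 0.00. Among 87 tested cytosolic ribosomal protein genes 3 rose, Rps23 and Rpl15 among them, and 83 lay above 0 with a median of 0.24, compared with 48 of 78 and 0.03 for the members. Calls made 1.28% of the respiratory chain list and 3.45% of the cytosolic list, where 4.97% of all tested genes were called higher. The 3 cytosolic calls were each lost in 5 of the 6 omissions of single libraries and were 0 under equal medians.

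**Figure D5:**
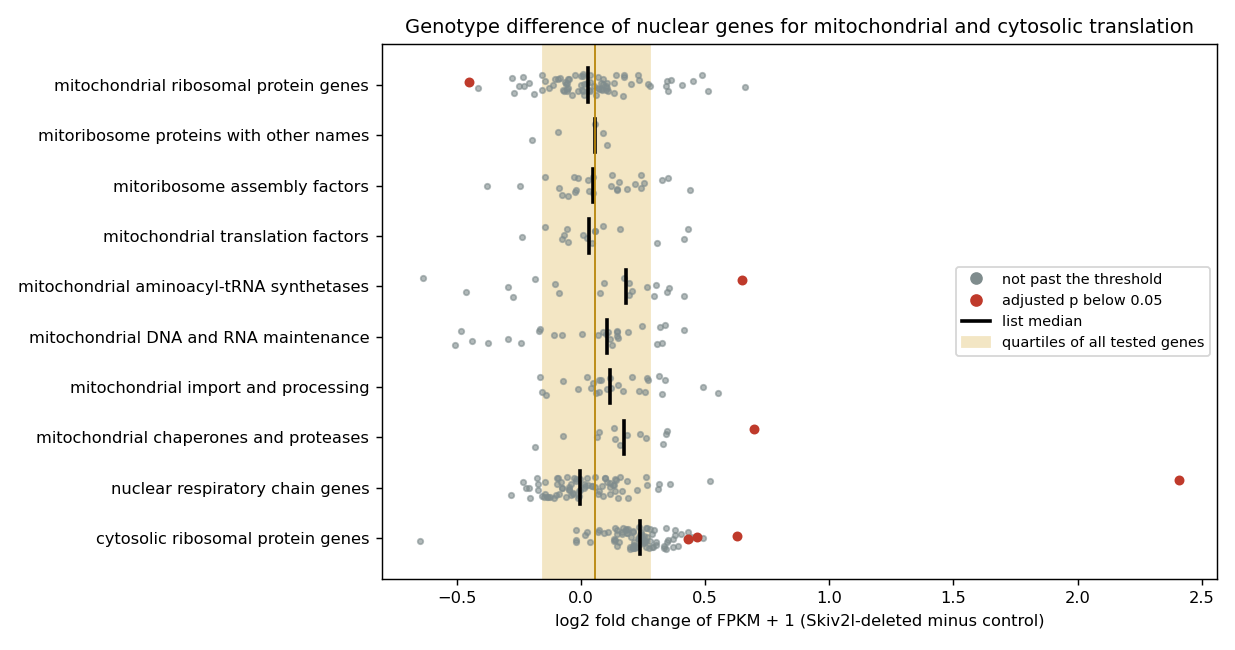
Log2 fold changes (Skiv2l-deleted over control) of the tested genes in each list, with the members beside the other mitochondrial lists and the cytosolic ribosomal protein genes. Bars are list medians, red points are called genes, and the band marks the quartiles of all tested genes. The members' median is 0.03 and that of the cytosolic ribosomal protein genes 0.24.

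The genes are spread over 17 chromosomes. Many start close to a gene on the opposite strand. A protein-coding partner there, with its start site within 1000 bases, was found for 33 members (42.3%), compared with 18.2% of all tested protein-coding genes. Some pairs are divergent, and others overlap at their starts, as do Mrpl27 with Eme1 and Mrpl48 with Rab6a. Of the 30 partners that were tested 3 (10%) were called, beside 8.84% of all tested genes. They were Eme1 beside Mrpl27, Ncapd2 beside Mrpl51 and Ska3 beside Mrpl57, each lower. Their Mrpl neighbours were not called. The median over tested partners was 0.04. Mrpl46 and Mrps11 are each other's partners and overlap at their starts.

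Promoter windows of 250 bases before to 50 bases after the start, from RefSeq on GRCm38.p6, were found for 69 of the 78 members and numbered 75. They were searched on both strands for motifs of factors known for nuclear genes of mitochondrial proteins. The NRF1 consensus stood in 17.3% of members' windows, compared with 10.8% of tested genes' windows and 4.60% of all windows. The ETS letters CCGGAAG, bound by GABPA, stood in 34.7% against 19.3% and 8.86%, and the YY1 letters AAGATGGC in 16% against 4.87% and 2.75%. The E-box CACGTG was in 9.33% against 10.4% and 7.15%, and the ATF4 letters TGATGNAA were in 0 windows, against 2.20% and 3.97%. No window had overlapping matches to 2 motifs. A match describes letters and is not a binding site. The 120 bases before the start are shown for the called member and for Mrps18b and Mrpl17, with the largest positive differences. They are also shown for members that carry NRF1, YY1 with an E-box, or ETS letters, and for the pair Mrps11 and Mrpl46. Capitals mark motif matches on either strand.
Mrpl49, chr19:6057756-6057875, minus strand: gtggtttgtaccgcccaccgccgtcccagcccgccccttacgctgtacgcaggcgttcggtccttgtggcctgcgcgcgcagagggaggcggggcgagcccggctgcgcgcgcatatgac
Mrps18b, chr17:35916441-35916560, minus strand: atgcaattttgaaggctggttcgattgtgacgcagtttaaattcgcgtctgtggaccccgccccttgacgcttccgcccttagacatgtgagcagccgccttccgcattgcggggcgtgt
Mrpl17, chr7:105811088-105811207, minus strand: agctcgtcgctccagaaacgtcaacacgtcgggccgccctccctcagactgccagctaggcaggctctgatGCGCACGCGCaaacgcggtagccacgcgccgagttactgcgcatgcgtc
Mrpl12, chr11:120484517-120484636, plus strand: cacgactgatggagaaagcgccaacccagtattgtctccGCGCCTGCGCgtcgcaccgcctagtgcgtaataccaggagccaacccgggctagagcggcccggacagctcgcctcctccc
Mrpl36, chr13:73330889-73331008, plus strand: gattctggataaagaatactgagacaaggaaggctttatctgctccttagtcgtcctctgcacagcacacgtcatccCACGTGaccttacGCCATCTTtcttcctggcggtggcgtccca
Mrpl52, chr14:54426789-54426908, plus strand: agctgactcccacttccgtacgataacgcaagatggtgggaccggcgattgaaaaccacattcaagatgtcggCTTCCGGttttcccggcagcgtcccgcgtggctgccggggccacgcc
Mrps11, chr7:78783011-78783130, plus strand: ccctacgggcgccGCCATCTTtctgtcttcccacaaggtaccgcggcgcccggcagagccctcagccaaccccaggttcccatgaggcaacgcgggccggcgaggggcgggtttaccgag
Mrpl46, chr7:78783090-78783209, minus strand: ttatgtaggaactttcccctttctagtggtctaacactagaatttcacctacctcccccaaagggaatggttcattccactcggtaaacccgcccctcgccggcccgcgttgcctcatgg
The 120 bases shown for Mrpl49, Mrps18b and Mrpl46 hold none of the 5 motifs. In the full windows of 300 bases, Mrpl49 had YY1 letters and Mrps18b had ETS letters. The full window of Mrpl17 had ETS letters as well as NRF1 letters. The windows of Mrps11 and Mrpl46 cover overlapping DNA on opposite strands. Of the members shown with NRF1 letters, Mrpl12 had a log2 fold change of 0.14 and Mrpl17 of 0.66, and Mrpl52, with ETS letters, had -0.07.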

How the data were processed

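Processed tables of 6 mouse libraries gave FPKM, TPM and coverage per gene. The authors deposited FPKM and TPM, normalized for transcript length and library size and not counts, together with coverage signal. The submitters' processing notes name the build GRCm38. No aligner or quantifier is named in the labels or file headers. FPKM was summed per gene ID. Genes with at least 1 FPKM in at least 3 libraries (13539) were tested with limma 3.58.1 (R 4.3.3; trend, Benjamini-Hochberg adjusted p below 0.05) on log2(FPKM + 1), so fold changes of low genes are understated. All 6 libraries entered with genotype as the only factor, and 17 alternatives were run. Coverage served only to recover relative depth, and no read counts are available, so no counting interval is given. Replicates are separate mice. The members and gene lists were chosen with earlier results of these data known. Named genes are label checks, called members, the 5 highest and 5 lowest by log2 fold change and by level, the Mrps18 paralogs, mitochondrial ribosome proteins with other names and called genes of each list. Other members (those without overlap between groups, those called in an alternative, the neighbours and sequences shown, Mrps14, Mrpl33, Mrps36, and Mrpl11, Mrpl12, Mrpl22, Mrpl45 and Mrps12) were chosen after values had been seen, as were non-member neighbours and marker examples. Gene positions are from GENCODE vM21: 73 of 78 members matched with the same ID version and coordinates, and the other 5 by ID alone. Scripts were tested on simulated data.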

Additional observations from a re-analysis of the deposited data

How the results depend on the processing

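The members called higher numbered 0, but 1 with TPM in place of FPKM and 3 without control 3 and Skiv2l-deleted 2. On leaving out single libraries they numbered 0 to 5, those called lower 0 to 1, and the median log2 fold change ran from -0.04 to 0.14. The replicate block left 0 members lower and 365 calls over all genes, against 1197 without it. Same-numbered libraries had correlations of 0.0939, -0.429 and -0.355 between their deviations. Deviations from a mean of 3 libraries depend on one another, so these values cannot decide whether the mice are paired. The labels do not say whether same-numbered mice are paired. The cause of these changes was not tested, though omissions also leave fewer libraries. Of 850 recomputed log2 fold changes of 50 named genes, 723 kept their sign and side of the threshold, 66 lost a call and 14 gained one. The other 47, in 21 genes, changed sign, with 0 of them past the threshold before or after. With TPM the values that changed sign were -0.00013 for Mrps18c and -0.0013 for Mrps12. With equal medians the values that changed sign were -0.059 for Mrps18c, -0.0019 for Gadd45gip1, -0.023 for Mrpl33 and -0.060 for Mrps12. With quantile normalization the values that changed sign were -0.0075 for Mrpl47 and -0.0042 for Mrps12. With immunoglobulin and T cell receptor segments left out the values that changed sign were -0.017 for Mrps18c and -0.018 for Mrps12. Without control 3 and Skiv2l-deleted 2 the values that changed sign were 0.36 for Mrpl53, 0.14 for Mrps25, -0.16 for Mrpl30, 0.060 for Mrps18a, 0.077 for Dap3 and 0.016 for Ptcd3. On leaving out single libraries the log2 fold change ran from -0.082 to 0.23 for Mrpl30, from -0.18 to 0.20 for Mrps18c, from -0.28 to 0.15 for Mrps14, from -0.30 to 0.38 for Mrpl33, from -0.14 to 0.15 for Mrps12, from -0.19 to 0.20 for Mrps25 and from -0.18 to 0.037 for Mrpl52. It ran likewise from -0.016 to 0.16 for Mrpl47, from -0.049 to 0.16 for Mrpl42, from -0.035 to 0.27 for Chchd1, from -0.0042 to 0.27 for Aurkaip1, from -0.089 to 0.24 for Gadd45gip1, from -0.049 to 0.37 for Mrpl2 and from -0.029 to 0.26 for Mrpl11. The remaining ranges were from -0.037 to 0.29 for Mrpl12, from -0.013 to 0.12 for Mrpl45, from -0.52 to 0.35 for Mrpl53, from -0.27 to 0.014 for Mrps21, from -0.14 to 0.036 for Mrps18a and from -0.41 to 0.064 for Dap3. With 3 mice a group and no counts, small differences could not be resolved in genes of low level. The limit was not confined to such genes. Mrps18c, at a mean of 65.8 FPKM over the 6 libraries, had a standard error of 0.24. In the simulated data, with 50 of 13539 genes changed by each fold, 5 changed by 1.5-fold and 26 changed by 2-fold were recovered. The measured data gave 1197 calls, and recovery with that many calls was not tested. A member without a call is not shown to be unchanged. The 95% interval lay within 1.5-fold in either direction for 55 members. It reached a 1.5-fold higher level for 15 members and a 1.5-fold lower level for 12.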
